A study of Mus musculus with 23 samples.

Results

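The genes described here are 10 markers and regulators of the bone and cartilage lineages, taken by symbol from a deposited table of 32793 genes: Alpl, Sp7, Spp1, Sox9, Msx1, Msx2, Dlx5, Postn, Mgp and Tnfrsf11b. Their RNA was followed in C2C12, an established line of mouse myoblasts, the dividing precursors that stop cycling and fuse into multinucleated muscle fibres once serum is lowered. Control cells (here WT) and cells labelled Runx1KO (here labelled KO) were harvested while growing in 20% fetal bovine serum (day 0) and 1, 3 and 6 days after a switch to 2% horse serum. The sample titles give the last time as day 6 and the series text as day 5, and the titles were followed.

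The 23 poly(A)-selected libraries formed 8 groups of 3, except WT day 0, which had 2. Estimated counts per library ranged from 22197606 to 23684077. The labels name no clone, guide or deleted exon for the Runx1KO cells, so whether they are 1 clone is not known here. The labels do not say that replicates came from separate cultures, so the p-values below measure only the spread between these libraries, which may be technical. Runx1 mRNA was higher, not lower, under the KO label: it was 84.0 and 83.9 CPM (counts divided by a library size scaled for composition) in WT on day 0 against 118, 119 and 122 in the KO-labelled libraries. It exceeded WT in every comparison of the genotypes, by 0.51, 0.35, 0.54 and 1.02 log2 units on days 0, 1, 3 and 6 (adjusted p from 6.11e-10 to 0.00151 by the quasi-likelihood test of edgeR, adjusted after Benjamini and Hochberg). Gene totals show neither the kind of change made in Runx1 nor whether the reads lie in a deleted part, so the genotype is given below as labelled.

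Runx transcription factors bind DNA together with Cbfb, and the family member Runx2 is the master regulator of osteoblast formation, acting upstream of Sp7 (osterix), the second osteoblast-determining factor. Sox9 plays the corresponding part in cartilage, and the homeobox factors Msx1, Msx2 and Dlx5 act downstream of Bmp signals in skeletal progenitors. C2C12 cells are widely used in this field because Bmp2 diverts them from the muscle to the osteoblast lineage, with Alpl as the usual readout. The remaining genes encode an enzyme and secreted proteins of mineralising tissue. Alpl is the phosphatase that hydrolyses pyrophosphate, Mgp inhibits calcification, Spp1 (osteopontin) is a phosphoprotein that binds mineral and integrins, Postn (periostin) is a matrix protein of periosteum and tendon, and Tnfrsf11b (osteoprotegerin) is the decoy receptor of Rankl.

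Promoter sequences are shown for Spp1 and Postn, the members with the most RNA per transcript length on day 6, which moved in opposite directions between the genotypes. RefSeq (GRCm38.p6, the assembly also known as mm10) supplied promoters for 5 of the 10 members in 8 windows of 250 bases upstream of an annotated start. The Runx core motif was searched as TGTGGT and TGCGGT on both strands. The Spp1 window at the gene's annotated start holds ACCACA, the reverse complement of TGTGGT, from 128 to 123 bases upstream of the start, and these letters are in capitals. A second Spp1 window, chr5:104435942-104436191, holds neither motif and is not printed. Neither motif lies in the Postn windows, one at the gene's annotated start and the other at a further start downstream.
Spp1, chr5:104434861-104435110, plus strand: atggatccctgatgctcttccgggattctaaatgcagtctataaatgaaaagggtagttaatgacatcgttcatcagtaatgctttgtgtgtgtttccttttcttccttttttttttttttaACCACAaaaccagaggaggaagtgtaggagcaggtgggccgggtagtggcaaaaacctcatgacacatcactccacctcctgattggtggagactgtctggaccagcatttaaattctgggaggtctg
Postn, chr3:54359017-54359266, plus strand: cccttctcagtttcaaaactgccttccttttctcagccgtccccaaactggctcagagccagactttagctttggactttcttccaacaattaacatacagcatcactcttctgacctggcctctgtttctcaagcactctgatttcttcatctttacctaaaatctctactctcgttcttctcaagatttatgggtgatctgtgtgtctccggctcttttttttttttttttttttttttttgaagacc
Postn, chr3:54360857-54361106, plus strand: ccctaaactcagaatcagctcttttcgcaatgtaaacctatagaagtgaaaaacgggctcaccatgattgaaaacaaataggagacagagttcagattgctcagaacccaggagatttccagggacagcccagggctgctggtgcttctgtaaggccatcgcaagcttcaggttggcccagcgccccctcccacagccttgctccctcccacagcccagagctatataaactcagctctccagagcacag

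The same Spp1 window contains the E-box CAGGTG, 98 to 93 bases upstream, and TTCCGG, the reverse complement of the Ets motif CCGGAA, 233 to 228 bases upstream. TGTGGT occurred in 14% and TGCGGT in 5.1% of 32851 mouse promoter windows of the same length, the E-box CANNTG in 66.2% and CCGGAA in 12%. Among the 8 windows of the members, the counts were 1, 0, 6 and 1. A match describes letters only, and binding was not measured.

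One library, replicate 2 of day 1 labelled KO, stood apart from its replicates. Its deviation from the mean of the other libraries in its group followed the GC content of the transcripts (r = -0.722 over 12408 genes, which are not independent replicates). The median absolute value of this deviation was 0.288 log2 units against 0.0687 to 0.171 in the other 22 libraries. Members followed the same pattern in part. Postn, with 36.3% GC, was 0.36 log2 units above the other replicates and Spp1, with 43.3%, was 0.28 above them, whereas Msx1, with 58.2%, was 0.70 below and Sox9, with 49.3%, was 0.79 below. Mgp, at 49.2% GC, was 0.15 above. Outside the day 1 group labelled KO, the largest such correlations with GC content were in WT day 6. They were 0.309 for replicate 2 and -0.287 for replicate 3, with median absolute deviations of 0.15 and 0.16 log2 units.

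Of the 10 members, 7 passed the filter on low counts and were tested. Alpl, Sp7 and Dlx5, the phosphatase and 2 regulators of osteoblast formation, did not pass. Between genotypes, Mgp was lower in the KO-labelled libraries on all 4 days. Postn was higher on all 4 in edgeR, with the day 3 call lost in 6 of 16 alternatives. Spp1 was lower on days 0, 1 and 6, Msx2 on days 1, 3 and 6, Sox9 on days 1 and 3, and Tnfrsf11b on day 1.

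Counts of members past an adjusted p of 0.05 are read against the share of all 14187 tested genes past the same threshold. On day 0, 3 of 7 members were called, 1 higher and 2 lower in the KO-labelled libraries, where 17.5% of all genes were called (7.36% higher, 10.1% lower). Day 1 gave 6 of 7 (1 higher, 5 lower) against 42.2% of all genes (22.9% higher, 19.2% lower). Day 3 gave 4 of 7 (1 higher, 3 lower) against 43.2% (24% higher, 19.2% lower), and day 6 also gave 4 of 7 (1 higher, 3 lower) against 42.9% (22% higher, 20.8% lower). The median log2 fold change of the 7 tested members was -0.15, -0.67, -0.24 and -0.35 on days 0, 1, 3 and 6, beside -0.00, 0.03, 0.04 and 0.00 over all tested genes. The counts describe the 7 tested members and not all 10.

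**Figure D1:**
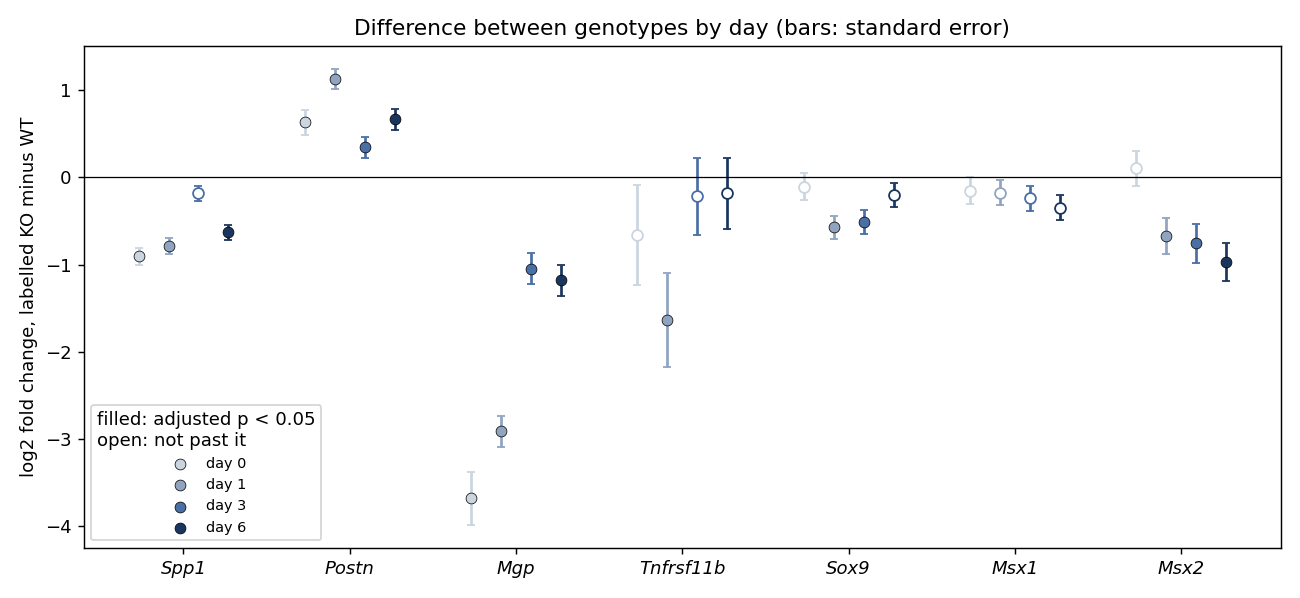
Log2 fold change of labelled KO against WT (y axis) for each tested member (x axis), 1 point per day with its standard error; filled points are past an adjusted p of 0.05. Mgp lies furthest below 0, at -3.68 on day 0 and -1.18 on day 6, and Postn is the member above 0 on all 4 days.

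Within WT, the change from day 0 was called for 3 of 7 members on day 1, 4 on day 3 and 4 on day 6, where 54.7% (27.1% higher, 27.6% lower), 58.2% (29.2% higher, 29% lower) and 63.6% (32.6% higher, 31.1% lower) of all tested genes were called. In the KO-labelled libraries the counts were 3, 5 and 5 of 7 against 52.3% (27.2% higher, 25.2% lower), 57.6% (30.4% higher, 27.2% lower) and 70% (36.6% higher, 33.5% lower). Mgp and Postn rose and Msx2 fell on every day in both genotypes, and Spp1 fell on days 3 and 6 in both. Sox9 fell on day 3 in the KO-labelled libraries, and Tnfrsf11b rose there on day 6. With 7 members, these counts lie near the shares among all genes.

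Mgp (chr6:136872435-136875823, GRCm38.p6, as are all positions here), the calcification inhibitor, had the largest difference between genotypes of the 7 tested members on each of the 4 days. The WT libraries of day 0 held 10.7 and 9.08 CPM of it and those labelled KO 0.817, 0.747 and 0.741 CPM, the latter from 16 to 18 counts each. On day 1 it stood at 100.3, 91.7 and 110.03 CPM in WT and at 11.5, 13.9 and 14.7 CPM in the KO-labelled libraries. The groups were far apart on both days, and the day 1 libraries labelled KO lay just above the WT libraries of day 0.

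By day 3, Mgp had come down in WT to 35.8, 31.0 and 22.1 CPM, and in the KO-labelled libraries it was 15.4, 13.1 and 14.4 CPM. On day 6 the values were 25.4, 37.5 and 27.7 CPM in WT and 17.8, 10.3 and 11.9 CPM labelled KO. The groups did not overlap on either day, and the lowest WT library on day 3 was replicate 3. Mgp was thus 12.8-fold lower in the KO-labelled libraries on day 0 (log2 fold change -3.68, SE 0.30, edgeR adjusted p = 3.98e-09). On days 1, 3 and 6 the folds were 7.53 (log2 -2.91, SE 0.18), 2.07 (log2 -1.05, SE 0.18) and 2.27 (log2 -1.18, SE 0.18), with edgeR adjusted p of 1.13e-11, 3.96e-05 and 8.73e-06.

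The time course of Mgp had a different shape in the 2 genotypes. In WT it rose from day 0 by 3.34 log2 units on day 1 and then stood 1.58 and 1.61 above day 0 on days 3 and 6. In the KO-labelled libraries it stood 4.11, 4.21 and 4.11 above day 0, with no peak on day 1. On the log2 scale, the change since growth medium was larger in the KO-labelled libraries on days 3 and 6. The difference was 2.63 log2 units on day 3 (SE 0.37, edgeR adjusted p = 2.95e-05) and 2.50 on day 6 (SE 0.37, edgeR adjusted p = 4.06e-05). On day 1 the difference of 0.77 (SE 0.38) missed the threshold (edgeR adjusted p = 0.294). These values rest on 16 to 18 counts per day 0 library labelled KO. In CPM the rise to days 3 and 6 was larger in WT, from a mean of 9.90 to 29.6 and 30.2, against 0.768 to 14.3 and 13.3 labelled KO. Per transcript length, the mean level of Mgp went from 38.1 to 427, 128 and 132 TPM, a length-corrected share of transcripts, in WT and from 2.82 to 55.9, 55.8 and 53.6 TPM in the KO-labelled libraries.

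**Figure D2:**
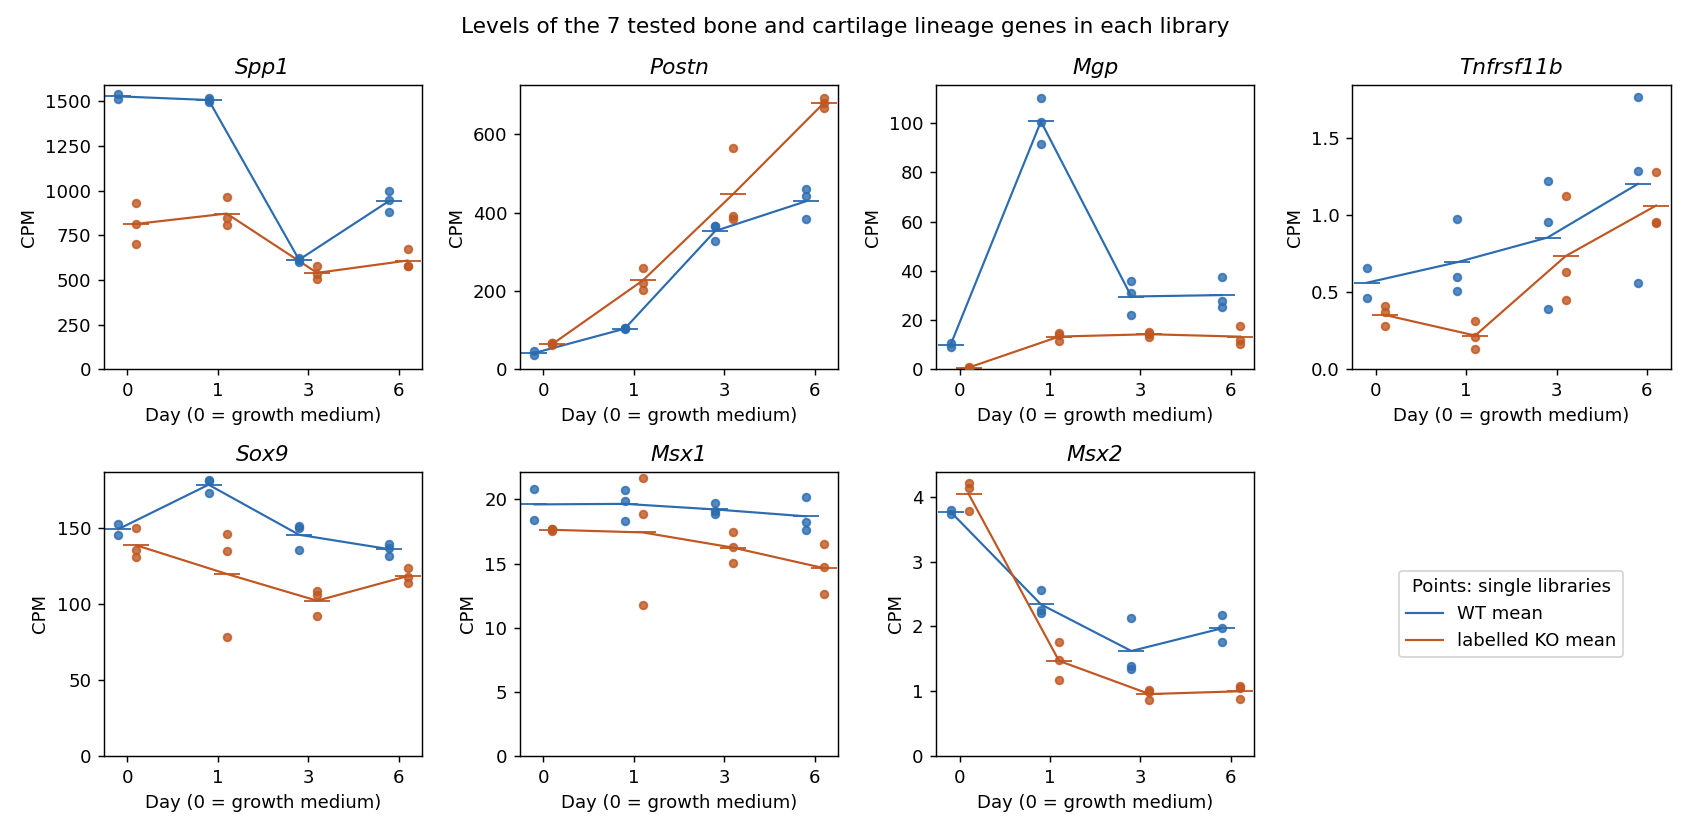
CPM (y axis, linear from 0, its own scale in each panel) by day (x axis) for the 7 tested members; points are single libraries and lines join the group means of WT (blue) and labelled KO (orange). Mgp peaks at 91.7 to 110.03 CPM in WT on day 1, Postn climbs in both genotypes, and Spp1 in WT falls from at least 1496.5 on day 1 to between 603 and 626 on day 3.

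Spp1 (chr5:104435111-104441053), or osteopontin, had the most RNA per length of the 10 genes in every group. Mean levels on days 0, 1, 3 and 6 reached 1891, 2048, 854 and 1325 TPM for WT and 967, 1160, 678 and 785 TPM for the KO-labelled libraries. These levels placed it between rank 72 and rank 201 among the genes with a TPM above 0. A gene model of unverified status, Gm42793, overlaps an exon of Spp1 on the same strand and was not analysed here.

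On day 0 Spp1 measured 1539 and 1515 CPM in WT against 929, 813 and 699.9 CPM labelled KO, and on day 1 it measured 1519.8, 1496.5 and 1504 against 806, 965 and 845 CPM. On day 3 the genotypes came together, at 626, 612 and 603 CPM in WT and 533, 506 and 581 CPM labelled KO. The levels on day 6 were 998, 950.4 and 883 CPM in WT and 673, 578 and 577 CPM labelled KO. The WT libraries lay above those labelled KO on all 4 days, by a wide gap on days 0, 1 and 6 and by a narrow one on day 3.

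The log2 fold changes of Spp1 on days 0, 1 and 6 were -0.91 (SE 0.10), -0.79 (SE 0.09) and -0.63 (SE 0.09), with edgeR adjusted p of 3.2e-07, 2.99e-07 and 4.38e-06. On day 3 the difference of -0.18 (SE 0.09) did not pass (edgeR adjusted p = 0.102, unadjusted p = 0.052). Its approximate 95% interval, a normal approximation, ran from -0.36 to -0.01. That interval is slightly too narrow, since the unadjusted p of the test is above 0.05. The difference was called in 6 of 16 alternative settings, DESeq2 at -0.22 among them. From day 0, Spp1 fell in WT by 1.32 log2 units on day 3 and by 0.69 on day 6, and in the KO-labelled libraries it fell by 0.59 and by 0.42. The day 3 change differed between the genotypes by 0.72 log2 units (SE 0.13, edgeR adjusted p = 0.000708), with the larger fall in WT. On day 1 neither genotype differed from day 0 past the threshold.

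Postn (chr3:54359267-54391041), the matrix protein periostin, rose steeply with differentiation and was the member that was higher in the KO-labelled libraries. On day 0 it was 46.1 and 37.9 CPM in WT and 66.7, 66.7 and 61.4 CPM labelled KO. Day 1 gave 102.6, 105.2 and 104.5 CPM in WT and 219.9, 260.0 and 201.5 CPM labelled KO. Both days showed every library labelled KO above every WT library.

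On day 3 Postn stood at 366.9, 365.5 and 326.9 CPM in WT and 565.5, 392.6 and 384.7 CPM labelled KO, and on day 6 at 384.3, 441.3 and 460.0 against 678.9, 692.7 and 665.5 CPM. Replicate 1 of day 3 labelled KO was well above its replicates, and without it the remaining libraries were just above the WT range. That library also had the highest summed level of 10 muscle markers in its group, 8506 TPM against 5309 and 5520, and the part this plays was not tested.

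The log2 fold change of Postn was 0.63 (SE 0.14), 1.13 (SE 0.12), 0.34 (SE 0.12) and 0.66 (SE 0.12) on days 0, 1, 3 and 6, with edgeR adjusted p of 0.00221, 9.35e-08, 0.0202 and 6.23e-05. Without replicate 1 labelled KO the day 3 value was 0.14 (edgeR adjusted p = 0.287), and without replicate 3 of WT day 3 it was 0.29 (edgeR adjusted p = 0.0918). It also missed the threshold scaled by library size only (0.29, edgeR adjusted p = 0.0577) and in limma on log2(TPM + 1) and log2(TPM + 0.1), at 0.16 in both (limma adjusted p of 0.383 and 0.385). The day 0 call was lost without WT replicate 2 (0.49, edgeR adjusted p = 0.0749). From day 0, Postn rose by 1.31, 3.07 and 3.35 log2 units in WT and by 1.81, 2.79 and 3.39 in the KO-labelled libraries on days 1, 3 and 6. The change from day 0 did not differ past the threshold on any of these days; the differences were 0.50, -0.29 and 0.04 log2 units (edgeR adjusted p of 0.133, 0.369 and 0.951). Without replicate 1 of day 3 labelled KO, that of day 3 was -0.49 and passed (edgeR adjusted p = 0.0334).

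Tnfrsf11b (chr15:54250619-54278484), the osteoprotegerin gene, was scarce, with 3 to 42 counts per library. On day 1 it had 12, 23 and 14 counts in WT and 7, 5 and 3 in the KO-labelled libraries, so the groups were apart but near the floor of detection. The log2 fold change was -1.64 (SE 0.54, edgeR adjusted p = 0.0173), and it missed the threshold without WT replicate 2 (-1.29, edgeR adjusted p = 0.1004) or without replicate 3 labelled KO (-1.39, edgeR adjusted p = 0.0656). On the log2(TPM + 1) scale limma gave -0.34 (adjusted p = 0.0868). The other days gave -0.66, -0.22 and -0.18 on days 0, 3 and 6, none past the threshold. In the KO-labelled libraries its counts went from 9, 6 and 8 on day 0 to 29, 22 and 22 on day 6, a rise of 1.57 log2 units (SE 0.48, edgeR adjusted p = 0.00576). WT had 15 and 10 counts on day 0 and 13, 29 and 42 on day 6, where replicate 1 overlapped day 0 (log2 fold change 1.09, SE 0.50, edgeR adjusted p = 0.0621). The WT rise passed without that replicate (1.43, edgeR adjusted p = 0.0142), by library size only (1.17, edgeR adjusted p = 0.0472) and in limma on log2(TPM + 1) (0.42, limma adjusted p = 0.0375), and for Tnfrsf11b a difference between the genotypes in the change from day 0 was called on no day.

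Among the transcription factors, Sox9 (chr11:112782210-112787757) was the most abundant, at mean levels of 40.5 to 75.8 TPM. On day 1 it was 182, 181 and 173 CPM in WT and 135, 78.0 and 146 CPM labelled KO. On day 3 it was 150.04, 135 and 151 CPM in WT and 108, 106 and 91.9 CPM labelled KO. The groups did not overlap on either day, and replicate 2 labelled KO stood far below its replicates on day 1.

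The log2 fold change of Sox9 was -0.58 on day 1 (SE 0.13, edgeR adjusted p = 0.00147) and -0.51 on day 3 (SE 0.14, edgeR adjusted p = 0.00387). On days 0 and 6 the values were -0.11 and -0.20 (edgeR adjusted p of 0.721 and 0.247), with approximate 95% intervals of -0.40 to 0.19 and -0.47 to 0.06, although the day 6 groups did not overlap. Within the KO-labelled libraries, Sox9 fell by 0.44 log2 units from day 0 to day 3 (SE 0.14, edgeR adjusted p = 0.00787), a call lost in limma on log2(TPM + 1) and log2(TPM + 0.1) (-0.34 and -0.35, limma adjusted p of 0.0551 and 0.0537). In WT no day differed from day 0 past the threshold in the fit of all groups, although day 1 lay above day 0 without overlap and was called with only the groups compared (0.25, edgeR adjusted p = 0.00135). In the fit of all groups no interaction was called for Sox9; with only the groups compared, that of day 3 was (-0.40, edgeR adjusted p = 0.0132), and without replicate 3 of day 1 labelled KO that of day 1 was (-0.64, edgeR adjusted p = 0.0477).

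Msx1 (chr5:37820491-37824585) had no called change across the time course, with group means of 18.7 to 19.7 CPM in WT and 14.7 to 17.6 CPM in the KO-labelled libraries. In the edgeR fit of all groups it was called in none of the 13 comparisons. With only the groups compared, Msx1 was called lower on day 3 (-0.28, edgeR adjusted p = 0.0149) and from day 0 to day 6 within the KO-labelled libraries (-0.28, edgeR adjusted p = 0.0281). Both limma fits also called it lower on day 3 (-0.37 and -0.39, limma adjusted p of 0.0320 and 0.0323), and edgeR called it lower on day 1 without replicate 3 labelled KO (-0.36, adjusted p = 0.0430). The largest difference between genotypes was on day 6, with 18.2, 20.2 and 17.7 CPM in WT and 16.5, 12.6 and 14.8 CPM labelled KO. These groups did not overlap, and the log2 fold change of -0.35 (SE 0.14) was just outside the threshold (edgeR adjusted p = 0.0523); 8 of 16 alternative settings called it, with values of -0.35 to -0.48. Over all settings for day 6 the value ran from -0.26 to -0.48.

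Msx2 (chr13:53466881-53472780), a homeobox factor that responds to Bmp, fell as the cells differentiated in both genotypes. On day 0 it was 3.74 and 3.80 CPM in WT and 4.13, 3.78 and 4.22 CPM labelled KO, overlapping groups. By day 6 it was 1.98, 2.17 and 1.76 CPM in WT and 0.882, 1.08 and 1.05 CPM labelled KO, groups that lay apart. These values rest on 20 to 91 counts per library.

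From day 0, Msx2 changed by -0.69, -1.21 and -0.93 log2 units in WT and by -1.46, -2.07 and -2.01 in the KO-labelled libraries on days 1, 3 and 6. Labelled KO against WT, its log2 fold change on days 0, 1, 3 and 6 was 0.10 (SE 0.20), -0.67 (SE 0.20), -0.76 (SE 0.22) and -0.97 (SE 0.22), with edgeR adjusted p of 0.812, 0.0106, 0.0088 and 0.000875. The change to day 6 differed between the genotypes by -1.07 log2 units (SE 0.30, edgeR adjusted p = 0.0175), a call lost when either WT day 0 library was left out (edgeR adjusted p of 0.0719 and 0.0627). The day 3 call was lost without WT replicate 1 (-0.51, edgeR adjusted p = 0.102), and the day 1 call with only the groups compared (-0.69, edgeR adjusted p = 0.0569) and without replicate 2 labelled KO.

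Across members, the test for a different change from day 0 in the 2 genotypes called 0 of 7 on day 1, where 3.95% of all genes were called (2.64% higher, 1.31% lower). It called 2 on day 3, Mgp and Spp1, both higher, beside 10.7% of all genes (6.65% higher, 4.06% lower). On day 6 it called 2, Mgp higher and Msx2 lower, beside 13% of all genes (7.54% higher, 5.42% lower). On day 1 DESeq2 also called 0 members, where it called 833 of 14187 genes. Sox9, Msx2 and Postn had an unadjusted p under 0.05 in edgeR on day 1, a threshold for which no share of all genes is given here.

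Alpl, Sp7 and Dlx5 were at or near 0. Alpl (chr4:137741731-137796384) had 0 to 3 counts per library and was above 0 in 6 of 23 libraries, 12 counts in all. Sp7 (chr15:102356603-102367035), the factor downstream of Runx2, had 0 to 7 counts and was above 0 in 16 libraries, with its highest values of 7 in WT day 1 and 6 in day 6 labelled KO. Dlx5 (chr6:6877801-6882068), the Bmp-responsive homeobox gene, had 1 count in 1 library, of day 0 labelled KO, and 0 in the others. A count of 0 allows up to 3 counts, or 0.126 to 0.140 CPM in these libraries, for counting error only. No direction between genotypes or days was tested for these 3 genes, which did not pass the filter. On day 1 Sp7 had 7, 4 and 2 counts in WT and 0, 2 and 1 labelled KO, all near the floor of detection.

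**Figure D3:**
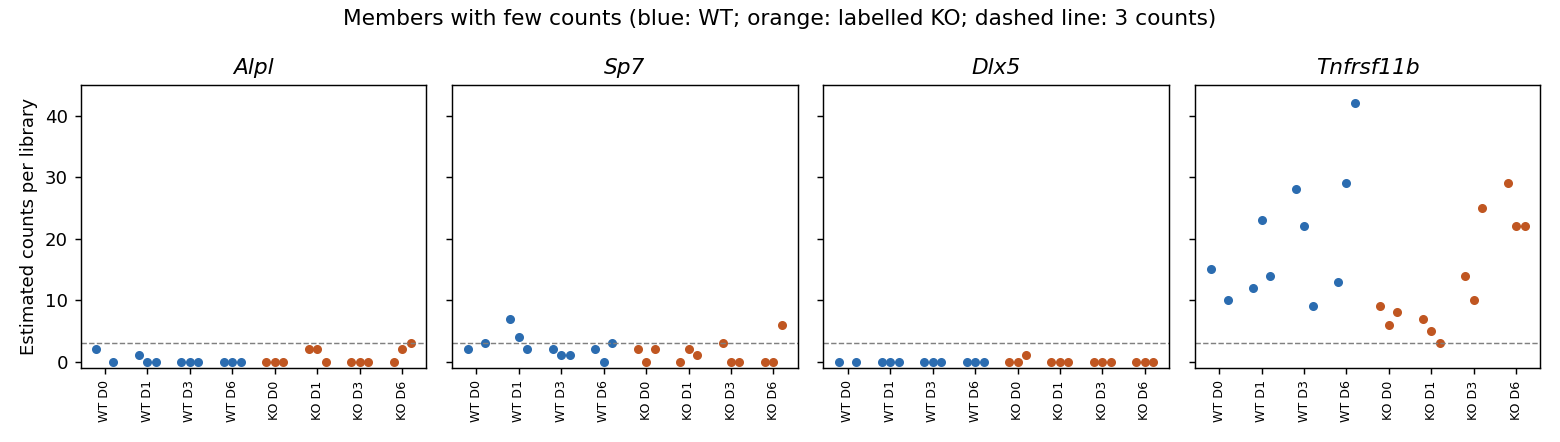
Estimated counts per library (y axis, linear) in the 8 groups (x axis; blue WT, orange labelled KO) for the 4 members with the fewest counts; the dashed line marks 3 counts. Dlx5 is above 0 in 1 library, Alpl does not pass 3, Sp7 reaches 7, and Tnfrsf11b ranges from 3 to 42.

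Without replicate 2 of day 1 labelled KO, the day 1 difference of Sox9 was -0.32 in place of -0.58 and stayed past the threshold (edgeR adjusted p = 0.00149). Msx2 changed to -0.51 and was no longer called (edgeR adjusted p = 0.0698), and Msx1 turned from -0.18 to 0.07, uncalled both times. Tnfrsf11b was -1.58 (edgeR adjusted p = 0.0499). Mgp, Postn and Spp1 gave -2.92, 1.04 and -0.85, all called. The day 1 count of called members was then 5 of 7 (1 higher, 4 lower), where 40.1% of all genes were called in the same fit (23.7% higher, 16.5% lower).

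**Figure D4:**
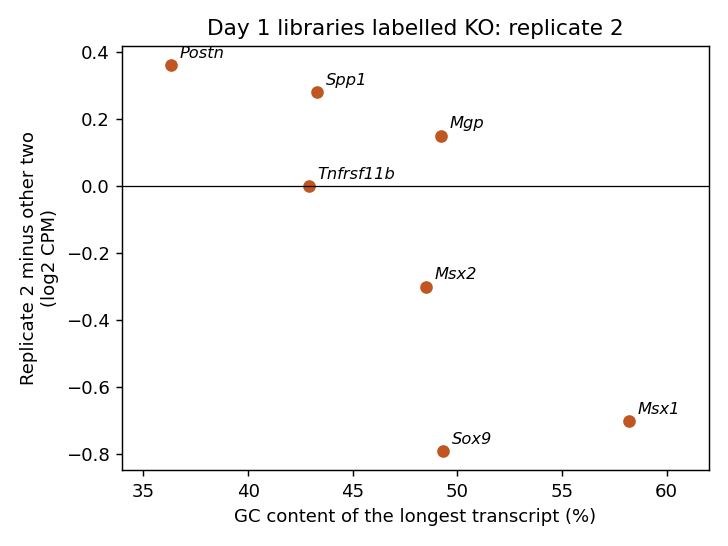
Day 1 libraries labelled KO: log2 CPM of replicate 2 minus the mean of the other replicates (y axis) against GC content of the longest transcript in percent (x axis), 1 point per tested member. Postn (36.3% GC) lies at 0.36 and Msx1 (58.2% GC) at -0.70, while Mgp and Sox9, with nearly the same GC content, lie at 0.15 and -0.79.

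The order of the groups shows which levels cannot be separated. Postn ran from day 6 labelled KO at the top (mean 679 CPM) down to WT day 0 (42.0 CPM), and among neighbours only day 3 labelled KO and WT day 6 overlapped. Mgp had WT day 1 alone at the top and day 0 labelled KO alone at the bottom; WT days 3 and 6 overlapped each other, and so did the neighbours among days 3, 1 and 6 labelled KO and WT day 0. For Spp1, WT days 0 and 1 overlapped at the top, then WT day 6 with days 1 and 0 labelled KO in turn, then WT day 3 with days 6 and 3 labelled KO. Sox9 had WT day 1 apart at the top and day 3 labelled KO apart at the bottom, with overlapping neighbours between. Msx2 had both day 0 groups together at the top and days 6 and 3 labelled KO together at the bottom. All neighbouring groups of Msx1, and of Alpl, Sp7 and Dlx5, overlapped.

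Over the 23 libraries, genes whose log2 CPM followed each member closely were found among tested genes with a mean of at least 5 CPM. These correlations are descriptions over libraries that share time points and genotypes. Postn was followed closely by Acta1, skeletal muscle actin (r = 0.98). Mgp was closest to Nagk (r = 0.97), an amino sugar kinase, and to Fgfr4 (r = 0.96), a growth factor receptor. Msx2 followed Ngef and Rbpms2 (both r = 0.96), and Sox9 followed Pacs1 (r = 0.94) and Foxs1 (r = 0.91). Spp1 followed Diaph1 and Dusp6, a phosphatase of Erk (both r = 0.88), Msx1 followed Tbc1d10a (r = 0.86) and Tmem55b (r = 0.85), and Tnfrsf11b followed P4ha3 (r = 0.82) and Igfbp7 (r = 0.78).

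Among the members themselves, the pair with the lowest correlation was Postn and Msx2 (r = -0.88), followed by Spp1 and Postn (r = -0.70). Sox9 and Msx1 correlated at 0.76, and both were low in replicate 2 of day 1 labelled KO. Acta1 itself had mean levels of 0.388, 7.11, 1171 and 1043 CPM in WT and 0.846, 48.4, 2312 and 6952 CPM in the KO-labelled libraries.

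Other genes of the lineages were read from lists of genes by role. Of 20 further osteoblast genes 14 were tested, and 0, 2, 3 and 2 were higher and 3, 5, 6 and 7 lower in the KO-labelled libraries on days 0, 1, 3 and 6 (median log2 fold changes -0.23, -0.22, -0.41 and -0.42). Over all tested genes the shares called were 7.36%, 22.9%, 24% and 22% higher and 10.1%, 19.2%, 19.2% and 20.8% lower, with medians of -0.00, 0.03, 0.04 and 0.00. The lower genes counted on days 1 and 6 include Bglap2. It had 8 to 16 counts per WT library on day 1 and 7 to 29 on day 6. The libraries labelled KO had 0 to 3 and 0 to 2. Bglap2 passed the filter through the WT groups, so its calls as lower are not independent of that filter. Col1a1, the main collagen chain of bone but also of other connective tissue, had a mean of 6409 CPM in WT and 919.9 CPM labelled KO on day 6, and its log2 fold changes were -4.48, -4.20, -3.84 and -2.80. Sparc (osteonectin) was lower on days 1, 3 and 6 (-0.28, -1.003 and -1.03), and Col1a2, which pairs with Col1a1 in type I collagen, was lower on days 0 and 3 (-0.68 and -0.47). Cbfb, the Runx partner, was higher on days 1, 3 and 6 (0.32, 0.33 and 0.31), and Atf4 was higher on day 6 (0.47). Without replicate 2 of day 1 labelled KO, the day 1 value of Cbfb was 0.15 (edgeR adjusted p = 0.0485) and that of Sparc -0.20 (edgeR adjusted p = 0.0547).

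Runx2, unlike its target Sp7, was present in every library, at group means of 55.7 to 82.0 CPM in WT and 61.6 to 90.2 CPM in the KO-labelled libraries. It was higher in the latter on day 1 (0.32, SE 0.07, edgeR adjusted p = 0.00129) and day 3 (0.19, SE 0.07, edgeR adjusted p = 0.0417), and the values of 0.14 on day 0 and 0.15 on day 6 did not pass.

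The other 6 of the 20 osteoblast genes had too few counts to test. Ibsp, a bone matrix sialoprotein, had 10 counts in all libraries together (9 of them in 1 library labelled KO), Sost had 3 and Mepe had 1, all products of osteoblasts or osteocytes in bone. Bglap, the osteocalcin gene, had 29, and its reads may be shared with its near-identical copy Bglap2. Both are therefore uncertain, and so are the calls of Bglap2 as lower.

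Cartilage genes were nearly silent beside Sox9. The 20 genes of that list summed to 1.03 to 7.74 TPM per library, and 6 were tested. Acan, the cartilage proteoglycan, had 25 counts, all in WT libraries, Comp had 45, and Matn1 and Col9a1 had 0. On days 0, 1, 3 and 6 the tested genes gave 0, 0, 1 and 1 higher and 2, 1, 1 and 1 lower (medians 0.13, -0.14, -0.09 and 0.06), beside calls for 17.5%, 42.2%, 43.2% and 42.9% of all tested genes. Col11a1, a fibril collagen, had 10 to 58 counts per WT library and 0 to 2 in those labelled KO, so it passed the filter through the WT groups, and its calls as lower on the 4 days are not independent of that filter; it is 1 of the lower genes counted on each day. Prg4, the joint lubricant proteoglycan, was lower on day 0 (-2.67, SE 0.42), and Col10a1 was higher on days 3 and 6, from no more than 31 counts in any library. Sox5 and Col11a2 were not called on any day.

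Genes of phosphate and pyrophosphate handling, the process in which Alpl acts, were present: 7 of 8 were tested. On the 4 days 1, 2, 1 and 2 were higher and 3, 4, 4 and 4 lower in the KO-labelled libraries (medians -0.20, -0.40, -0.40 and -0.36), where 17.5%, 42.2%, 43.2% and 42.9% of all tested genes were called. Enpp1, which makes pyrophosphate outside the cell, was lower on every day (-0.98, -1.59, -1.24 and -0.72), and so was Ank, which exports its source (-0.78, -0.996, -0.40 and -0.66). Phospho1, a phosphatase of matrix vesicles, was lower as well (-0.60, -0.86, -1.16 and -0.36). Of the phosphate transporters, Slc20a2 was higher on every day (0.44, 0.72, 0.68 and 1.10) and Slc20a1 was lower on days 3 and 6 (-0.42 and -0.51).

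**Figure D5:**
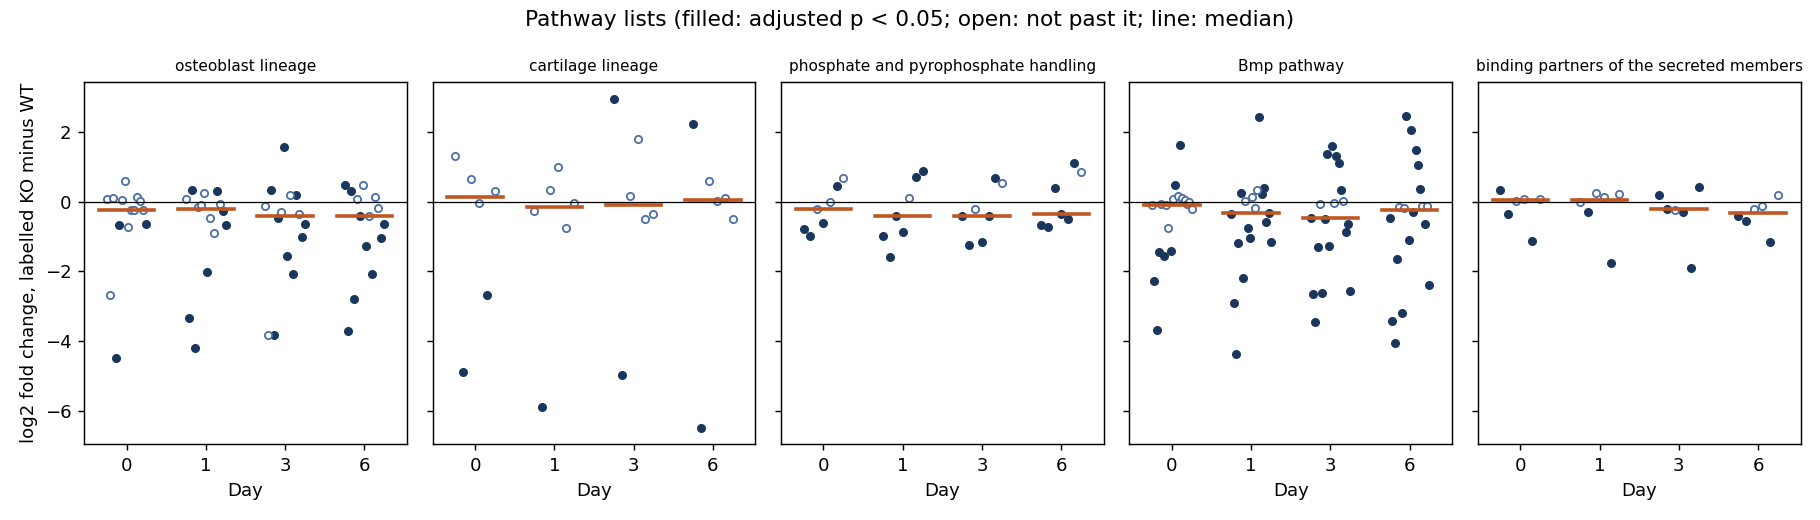
Log2 fold change of labelled KO against WT (y axis) by day (x axis) for the tested genes of 5 lists; filled points are past an adjusted p of 0.05, open points are not, and the bar is the median. In the Bmp list 10 genes are lower on day 1 and 10 on day 3, and in the cartilage list Col11a1 is the lowest point on every day, a fitted value from KO-labelled libraries with 0 to 2 counts.

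Of 20 Bmp pathway genes 18 were tested, with 2, 4, 5 and 5 higher and 5, 10, 10 and 9 lower on days 0, 1, 3 and 6 (medians -0.09, -0.34, -0.48 and -0.23). Over all tested genes 7.36%, 22.9%, 24% and 22% were higher and 10.1%, 19.2%, 19.2% and 20.8% lower. The ligand Bmp4 was lower on every day (-3.69, -4.36, -3.45 and -4.07). The antagonists did not move together: Grem1 was lower on every day (-1.42, -1.03, -1.28 and -1.09), Nog was higher on every day (1.63, 2.42, 1.13 and 1.07), and Chrd was lower on day 1 (-0.76) and higher on days 3 and 6 (1.36 and 2.46). The day 1 call of Chrd was lost without replicate 2 labelled KO (-0.50, edgeR adjusted p = 0.0827). Smad1, a transducer of Bmp receptors, was higher on days 1, 3 and 6 (0.21, 0.34 and 0.37). Id1 and Id3, which Bmp signals induce, were higher on day 3 (1.62 and 1.31) and day 6 (2.06 and 1.496), while Msx2 was lower on both days. Id2 was higher on day 0 (0.48) and lower on day 6 (-0.29). Without replicate 2 of day 1 labelled KO, Id3 was also higher on day 1 (0.50, edgeR adjusted p = 0.0082).

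Among the receptors and partners of the secreted members, 6 of 9 were tested, with 1, 0, 2 and 0 higher and 2, 2, 3 and 3 lower (medians 0.05, 0.06, -0.21 and -0.31), set against 17.5%, 42.2%, 43.2% and 42.9% of all tested genes called. Rankl and its receptor were too scarce to test (Tnfsf11 had 16 counts in all libraries and Tnfrsf11a had 2). Cd44, a receptor for osteopontin, was higher on day 0 (0.33) and day 3 (0.20) and lower on day 6 (-0.40). Csf1, which acts with Rankl on osteoclast precursors, was lower on every day (-0.36, -0.30, -0.20 and -0.55). Of the integrin chains, Itgb3 was lower on every day (-1.13, -1.75, -1.90 and -1.16), Itgb1 was lower (-0.28) and Itgb5 higher (0.42) on day 3, and Itgav was not called. Without replicate 2 of day 1 labelled KO, Itgb5 was also higher on day 1 (0.39, edgeR adjusted p = 0.000365). Leaving out the day 1 library that stood apart gave, higher and lower, 2 and 4 for osteoblast genes, 0 and 1 for cartilage genes, 1 and 4 for phosphate genes, 3 and 8 for the Bmp list and 1 and 2 for the partners on day 1, where 23.7% of all tested genes were higher and 16.5% lower.

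Markers of other cell types were read from the same libraries. The summed level of 10 muscle markers went from 939 to 950 TPM in WT and 1266 to 1304 TPM labelled KO on day 0 to 3116 to 3561 TPM in WT and 12933 to 14998 TPM labelled KO on day 6. Of the 10, 2, 6, 9 and 8 were higher and 1, 1, 0 and 1 lower in the KO-labelled libraries on days 0, 1, 3 and 6, beside 7.36%, 22.9%, 24% and 22% higher and 10.1%, 19.2%, 19.2% and 20.8% lower among all tested genes. On day 6 Acta1 (2.74) and Des (0.83) were higher, and the lower marker on days 0, 1 and 6 was Myf5, a myoblast factor (-1.43, -0.89 and -0.34). In bulk RNA, fewer cells of a type and less RNA per cell cannot be told apart. The 6 fibroblast markers summed to 2144 to 2689 TPM in WT and 1040 to 1199 TPM labelled KO on day 6; 3 were tested, Col3a1 was lower on every day (-0.79, -0.68, -0.98 and -1.01), and Dcn was higher on days 0, 3 and 6 (1.89, 1.01 and 0.74) and lower on day 1 (-0.66). Pdgfra was lower on days 0, 1 and 3 (-0.93, -0.78 and -0.54). Thy1 was at 0 in every library.

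The 4 tendon markers summed to 104 to 238 TPM, with Scx higher on days 3 and 6 (0.42 and 0.82) and Mkx lower on days 1, 3 and 6 (-0.79, -0.83 and -0.97). Tnmd had 1 count in all and Kera 0. The 6 adipocyte markers summed to 13.6 to 35.1 TPM, with Adipoq at 0 and Plin1 at 2 counts in all, and 3 were tested. Cebpa (-1.79, -0.99, -0.71 and -0.77) and Pparg (-0.72, -0.83, -1.01 and -0.82) were lower on every day, and Lpl was higher on days 0, 1 and 3 (0.89, 1.37 and 1.52). The 6 blood and endothelial markers summed to 1.05 to 17.3 TPM, with Ptprc at 1 and Kdr at 2 counts in all, and Cd68 was higher on day 6 (1.68). The part these markers play in the differences of Mgp, Spp1, Postn, Sox9 and Msx2 was not tested.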

How the data were processed

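The values are poly(A) RNA-seq estimated counts per gene, deposited as whole numbers, and TPM computed by the authors. Bowtie2, RSEM and the mm10 build are named per the submitters' processing notes, without versions or roles; the annotation and use of strand are not given in the sources used here. Of 32793 rows, 12326 were 0 in all 23 libraries, and edgeR's filterByExpr (minimum count 10, total 15) left 14187. edgeR 4.0.16 in R 4.3.3 fitted all 8 groups with TMM scaling and quasi-likelihood tests over 13 contrasts, with Benjamini-Hochberg adjustment per contrast at 0.05. CPM are counts over the TMM-scaled library size, and log2 CPM used a prior count of 2. Groups followed the sample titles. Named list genes were the 5 (markers: 2) with the highest mean TPM in each list; Runx2, Itgb3, Bmp4, Nog, Chrd, Lpl, Myf5, Pdgfra and the scarce genes named beside them, those at 0 included, were chosen after their values were seen, as was the day 1 alternative without 1 library for the lists. The members and lists were chosen with earlier results of these data known. Replicate numbers pair no samples by the labels, and deviations of same-numbered libraries had mean correlations of 0.049, 0.003, 0.017 and -0.094 on days 0, 1, 3 and 6. The closing section gives the alternatives, run with DESeq2 1.42.0 and limma 3.58.1 among them. One gene that the rule for similar patterns names is not reported here.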

Additional observations from a re-analysis of the deposited data

Results flagged for a closer look

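Calls of a change in the genotype difference between growth medium and a later day were made for 3 members, by edgeR's interaction test with Benjamini-Hochberg adjustment. For Mgp, the log2 change since day 0 was larger in the libraries labelled KO by 2.63 log2 units on day 3 (SE 0.37, adjusted p = 2.95e-05) and by 2.50 on day 6 (SE 0.37, adjusted p = 4.06e-05). The day 0 values it rests on are 16 to 18 counts per library labelled KO, and in CPM the rise was larger in WT on both days. For Spp1, the change to day 3 was 0.72 log2 units less negative in the libraries labelled KO (SE 0.13, adjusted p = 0.000708). For Msx2, the change to day 6 was 1.07 log2 units lower there, a difference of -1.07 (SE 0.30, adjusted p = 0.0175). That call was lost without WT day 0 replicate 1 (edgeR adjusted p = 0.0719) or replicate 2 (edgeR adjusted p = 0.0627) and at a threshold of 0.01.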

How the results depend on the processing

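The 91 results were each recomputed under 14 to 21 alternatives, of 33 settings over all comparisons, 1507 values in all: 1401 kept direction and side of the threshold, 20 lost a call, 35 gained one and 51 changed sign, none of these after a call. Members called in KO day 6 against day 0 fell from 5 to 3 with a mean count of at least 50, which left fewer members. In that setting 8470 of 11435 genes were called. The day 6 interaction count went from 2 to 1 there, beside 1824 of 11435 genes. It also went to 1 at an adjusted p under 0.01, beside 1079 of 14187 genes. Without WT day 0 replicate 1 or 2, which leaves 1 sample in that group, Msx2 interaction D6 was -1.04 or -1.08. The day 1 interaction count ran from 0 to 1, the call being Sox9 without KO_D1 replicate 3 (Sox9 interaction D1 -0.64). With the replicate block, whose numbers pair no libraries, members called were 3, 6, 4 and 4 between genotypes on days 0, 1, 3 and 6, 3, 4 and 4 over time in WT, 3, 5 and 5 in KO and 0, 2 and 2 for the interaction, as without it. Over all genes the block gave 15.7%, 41.1%, 42.5% and 42%, then 53.7%, 57.3% and 62.7%, 51.3%, 57% and 69.5%, and 3.11%, 9.98% and 12%.

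Sign changes were in uncalled log2 values, and their cause was not tested. Spp1 WT_D1 vs WT_D0 was 0.00910 with RLE scaling and with DESeq2, 0.048 by library size only, 0.025 with a mean count of at least 50, 0.12 under both limma fits to log2(TPM + 1) and log2(TPM + 0.1), and 0.00490 with the replicate block. Msx1 WT_D1 vs WT_D0 was -0.00895 with no filter, -0.00374 with only the groups compared and -0.028 with the replicate block. By library size only, Sox9 WT_D3 vs WT_D0 was 0.026, Msx1 WT_D3 vs WT_D0 0.034, Msx1 WT_D6 vs WT_D0 0.00917 and Msx1 KO_D1 vs KO_D0 0.062; with a mean count of at least 50, Msx1 WT_D3 vs WT_D0 was 0.00499. Under the limma fits, Sox9 WT_D3 vs WT_D0 was 0.16 in both, Msx1 WT_D3 vs WT_D0 0.14 in both, Msx1 WT_D6 vs WT_D0 0.11 in both, Sox9 WT_D6 vs WT_D0 0.086 and 0.087, Msx1 KO_D1 vs KO_D0 0.089 and 0.092 and Postn interaction D6 -0.019 and -0.037; with the replicate block Postn interaction D6 was -0.00284.

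With 1 library left out, the lowest and highest values were -0.36 and 0.067 for Msx1 KO_D1 vs WT_D1, -0.66 and 0.13 for Tnfrsf11b KO_D3 vs WT_D3, -0.52 and 0.22 for Tnfrsf11b KO_D6 vs WT_D6, -0.093 and 0.096 for Msx1 WT_D1 vs WT_D0, and -0.025 and 0.57 for Tnfrsf11b WT_D1 vs WT_D0. They were -0.12 and 0.064 for Msx1 WT_D3 vs WT_D0, -0.071 and 0.013 for Sox9 WT_D3 vs WT_D0, -0.17 and 0.023 for Msx1 WT_D6 vs WT_D0, -0.21 and 0.22 for Msx1 KO_D1 vs KO_D0, and -0.38 and 0.036 for Sox9 KO_D1 vs KO_D0. For the interactions they were -0.21 and 0.22 for Msx1 on day 1, -0.18 and 0.013 for Msx1 on day 3 and -0.095 and 0.17 for Postn on day 6. Leaving out 1 WT day 0 library leaves a lone sample, assumed to vary like the other groups. Against edgeR, limma on log2(TPM + 0.1) shifted the median of all genes by -0.15 and -0.12 between genotypes on days 3 and 6, and by up to 0.16 over time (WT_D3 vs WT_D0). Depth limits Alpl, Sp7, Dlx5 and Tnfrsf11b. Calls gained and not given above were Sox9 KO_D6 vs WT_D6 (-0.21) and Sox9 KO_D6 vs KO_D0 (-0.24) with only the groups compared, Sox9 KO_D1 vs KO_D0 (-0.38) without KO_D1 replicate 3, Spp1 KO_D1 vs KO_D0 in both limma fits (0.26 in each) and without KO_D0 replicate 1 (0.22), Msx2 interaction D3 in both limma fits (-0.48 and -0.84), and Tnfrsf11b KO_D3 vs KO_D0 without KO_D3 replicate 2 (1.30).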
